A study of Mus musculus with 13 samples.

Results

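In Nup210 knockout (KO) 4T1 cells, 2170 of the 8874 H3K27me3 islands on the list (24.5%) overlapped no island of the control list. An island is a stretch of the genome that the authors' peak caller, SICER, listed from ChIP reads in windows of 1000 bp, with IgG as the control. Not every listed island held more reads than the scaled IgG library. A KO island was taken when not even 1 bp of it was shared with an island of the control cells, so the lack of a control island is how these KO-only islands were chosen and is no finding. The reverse set, control islands without a KO island, numbered 1771 of 9555 (18.5%). The KO-only islands covered 29.1 Mb and held 2142707 of the 26811061 reads in KO islands, and they met the bodies of 1337 genes.

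4T1 is a mammary tumor line of BALB/cJ mice. The control cells (sg-Ctrl) carried a guide RNA without a target, and the KO cells (KO-N13) carried a guide RNA to an exon of Nup210, with Cas9 supplied to the guide-carrying cells by an adenovirus. Guide RNAs were brought in by lentivirus with puromycin selection in both. KO-N13 was 1 clone, and each antibody was used on 1 library per genotype, so KO and sg-Ctrl could not be tested over replicates, and every interval below covers counting error only. H3K27me3 and H3K4me3 were profiled in both genotypes against the same rabbit IgG library, while NUP210 and NPC, an antibody to several nuclear pore proteins, were profiled in sg-Ctrl cells alone. RNA-seq samples of the series were left out. The H3K27me3 library of the KO cells was 3.16 times as deep as that of sg-Ctrl cells, and the sg-Ctrl islands held 7719297 reads. The markers of epithelial cells Epcam, Krt8, Krt18, Krt19 and Cldn7 had H3K4me3 at their TSS in both genotypes and no H3K27me3 island, 5 of 5, while Ptprc and Cd3e of leukocytes and Pecam1 and Cdh5 of endothelium had no H3K4me3 there. Of the mesenchymal markers, Vim had H3K4me3 in either genotype (1925 sg-Ctrl and 1209 KO reads), while Zeb1, Cdh2 and Col1a2 had no peak. Of the neural markers, Gfap had a peak in KO alone, and Rbfox3 and Snap25 had none. The Nup210 TSS itself kept an H3K4me3 peak, with 885 reads in sg-Ctrl and 913 in KO, which is no check of the knockout, since the targeted exon lies elsewhere in the gene.

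H3K27me3 is the trimethyl mark that Polycomb repressive complex 2 places on histone H3. It lies in broad domains over genes that a cell type holds silent, among them regulators of other tissues, and can also fill long silent genes and the regions between genes. H3K4me3 marks the start sites of active or poised genes, and NUP210 is a membrane-spanning protein of the nuclear pore.

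The lists hold only islands that meet a gene body, and this limits what can be said of absence. A control island that lay wholly between genes would not be on its list, even if a KO-only island covered the same place. Of the KO-only islands, 1542 (71.1%, 95% Wilson interval 69.1 to 72.9) lay wholly inside gene bodies, where any overlapping control island would have been listed. The other 628 ran past gene bodies. Of the 29.1 Mb that all KO-only islands covered, 18.3 Mb (62.8%) was inside genes. Reads of the sg-Ctrl library under KO-only islands are not in the lists, so the values below are those of the KO and IgG libraries.

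KO-only islands contained the hairpins of 15 of the 1005 miRNA genes in the RefSeq table of GRCm38.p6, in 12 islands. KO islands that met a control island contained 58 hairpins and control-only islands 5. In the same order, these sets covered 29.1, 235 and 21.5 Mb, so the counts are not a comparison of rates. Of all KO islands, 24.5% were KO-only. For 7 well-studied miRNAs in KO-only islands, the mature sequence is given 5′ to 3′ with the seed, bases 2 to 8, in capitals. The seed sets which transcripts a miRNA can pair with. The 25 mature miRNAs of the 15 hairpins had 25 different seeds, so none could be grouped by a shared seed.

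miR-205-5p: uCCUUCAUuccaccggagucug
miR-206-3p: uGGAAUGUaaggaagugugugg
miR-133b-3p: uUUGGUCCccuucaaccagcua
miR-138-5p: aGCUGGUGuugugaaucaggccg
miR-153-3p: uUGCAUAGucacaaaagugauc
miR-7b-5p: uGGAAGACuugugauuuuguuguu
miR-448-3p: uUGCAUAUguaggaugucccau

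Mir205, the gene of an epithelial miRNA that targets the Zeb1 and Zeb2 transcripts, lay at chr1:193507463-193507530 in an island of 47 kb (chr1:193463001-193510000). That island held 3674 KO reads and 274 IgG reads, a fold over IgG of 5.01, and the nearest listed control island was 218 kb away. Mir206 and Mir133b, muscle miRNAs whose hairpins lie side by side, shared 1 island of 52 kb (chr1:20649001-20701000) with 3605 KO and 592 IgG reads and a fold of 2.28. Both hairpins were themselves listed genes, so a control island on either would have been listed, but 0.369% of this island and 0.145% of the Mir205 island were inside gene bodies, and the control state of the rest is not known from the lists.

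Mir138-1 and Mir7b lay in islands of 19 and 23 kb with folds of 2.91 and 3.13. Mir153, inside the receptor phosphatase gene Ptprn2, lay in an island of 34 kb with a fold of 2.29. Mir448, inside the serotonin receptor gene Htr2c, lay in an island of 43 kb with 4251 KO and 619 IgG reads. Mir224 and Mir452, both inside the GABA receptor gene Gabre, shared an island of 11 kb with 667 KO and 63 IgG reads.

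The start of 443 genes lay in a KO-only island, and 370 of these had no control island anywhere on the gene body. The promoter, from 250 bases before to 50 bases after the start, was found in the RefSeq table for 299 promoters of these genes. Of 4 of them, the sequence is given with each CG dinucleotide in capitals, since CG-rich starts are those that PRC2 and H3K4me3 share in many cell types. Postn, which encodes the matricellular protein periostin, is the gene measured in the study that a KO-only island met. Rab32, a small GTPase, and Hey2, a Notch-responsive repressor, kept H3K4me3 at a start inside a KO-only island. Olfr373 is an odorant receptor gene in the second densest island of those at least 3 kb wide.

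Postn: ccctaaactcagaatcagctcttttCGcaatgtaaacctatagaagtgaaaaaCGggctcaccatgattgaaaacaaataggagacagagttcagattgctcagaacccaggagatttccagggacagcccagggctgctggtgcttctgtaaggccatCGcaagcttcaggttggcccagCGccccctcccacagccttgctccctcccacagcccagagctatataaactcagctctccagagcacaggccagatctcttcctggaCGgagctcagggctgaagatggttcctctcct
Rab32: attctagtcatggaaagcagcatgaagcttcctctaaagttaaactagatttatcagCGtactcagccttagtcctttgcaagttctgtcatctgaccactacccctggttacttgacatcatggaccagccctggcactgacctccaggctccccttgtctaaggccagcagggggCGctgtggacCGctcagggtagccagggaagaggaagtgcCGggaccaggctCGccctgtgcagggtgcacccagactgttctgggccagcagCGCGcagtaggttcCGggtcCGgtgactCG
Hey2: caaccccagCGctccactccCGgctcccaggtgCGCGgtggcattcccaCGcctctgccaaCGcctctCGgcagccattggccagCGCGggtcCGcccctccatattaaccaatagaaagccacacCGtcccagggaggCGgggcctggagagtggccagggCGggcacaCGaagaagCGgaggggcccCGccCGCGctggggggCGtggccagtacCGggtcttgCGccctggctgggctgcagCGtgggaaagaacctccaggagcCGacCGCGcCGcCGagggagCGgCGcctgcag
Olfr373: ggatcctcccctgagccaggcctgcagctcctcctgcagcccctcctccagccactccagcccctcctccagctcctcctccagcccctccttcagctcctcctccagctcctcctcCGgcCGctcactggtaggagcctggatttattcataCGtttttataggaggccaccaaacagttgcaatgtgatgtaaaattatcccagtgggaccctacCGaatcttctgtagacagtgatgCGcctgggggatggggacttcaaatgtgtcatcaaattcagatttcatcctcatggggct

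These promoters are on GRCm38.p6 at chr3:54360857-54361156 (Postn, plus strand), chr10:10558158-10558457 (Rab32, minus strand), chr10:30842734-30843033 (Hey2, minus strand) and chr8:72099512-72099811 (Olfr373, plus strand). Postn and Olfr373 held 5 CG each, Rab32 10 and Hey2 29. Over the 299 promoters in KO-only islands, the median was 2 CG, and 40 (13.4%, 95% Wilson interval 9.98 to 17.7) held at least 10. Promoters in KO islands that met a control island gave the same median of 2, with 14.97% (13.4 to 16.7) at 10 or more, over 1784 promoters. Promoters in control-only islands had a median of 6 and 36.5% (29.98 to 43.5) at 10 or more, over 192, and the whole table of 32851 promoters had a median of 7 and 43.5%. Without the odorant and vomeronasal receptors, which are CG-poor, these medians were 4, 4 and 7, and the shares were 21.8%, 21.7% and 40.0%. The intervals of KO-only starts and of the other KO-marked starts overlapped, while starts in control-only islands were richer in CG, with intervals that did not overlap theirs.

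Among themselves, the KO-only islands varied mostly in width. The median was 9 kb, the middle of the set ran from 6 to 15 kb and the extremes were 1 and 372 kb. KO islands that met a control island had a median of 19 kb, and control-only islands had 9 kb. Density is given as H3K27me3 reads per kb after the ChIP reads were divided by 2.68, the size of the KO library relative to IgG. The median density of KO-only islands was 24.6 (95% interval 24.3 to 24.9, range 14.7 to 66.5), against 30.1 (29.8 to 30.4) in KO islands that met a control island and 28.7 (28.2 to 29.1) in control-only islands. The median fold over IgG was 2.16, 2.46 and 2.28 in the same order. An FDR of at most 0.05 was reached by 1942 KO-only islands (89.5%), a fold of at least 2 by 1205 (55.5%), and 166 (7.65%) held fewer reads than the scaled IgG library. All of these values share the contrast that chose the islands and are a description.

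**Figure D1:**
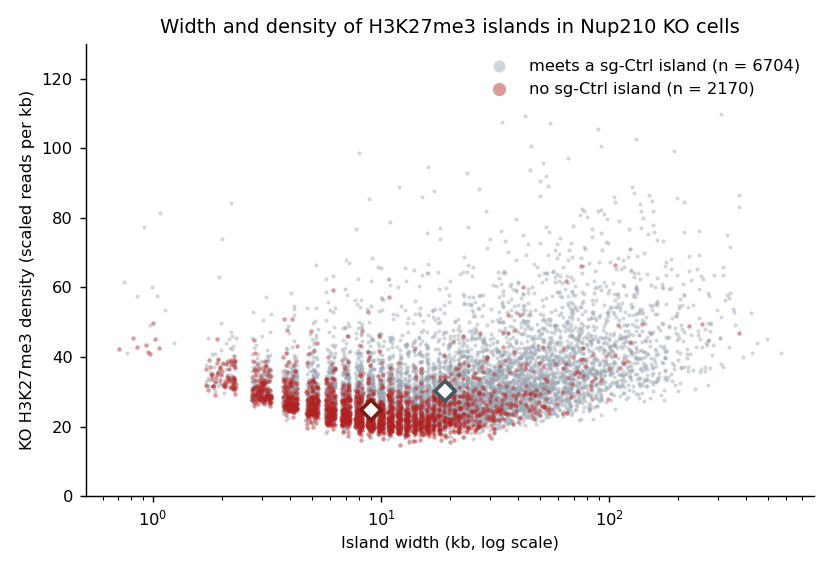
Width (kb, log scale) and H3K27me3 density in KO cells (reads per kb, divided by the relative library size) of each KO island, in red where no control island was met (n = 2170) and in gray where one was (n = 6704). Diamonds mark the medians, 9 kb and 24.6 in red against 19 kb and 30.1 in gray, points are spread slightly along the width axis, and 6 islands above 120 are not drawn.

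Set against control islands of like width after division by library size, KO-only islands were sparse, though most reached the 5th percentile of control density. In width classes of 1 to 5, 6 to 10, 11 to 20, 21 to 50 and at least 51 kb, 1481 of the 2170 (68.2%) were at or above the 5th percentile of control density in their class, and 227 (10.5%) were at or above the median. After the same division, 4940 islands paired 1 to 1 between the lists had a median log2 ratio of -0.158, KO over sg-Ctrl. Scaled by the reads of islands shared by both lists, the median density of KO-only islands was 27.3. The part of the scaling in their low density was not tested. At the depth of the sg-Ctrl library, the same density would have given a KO-only island a median of 176 reads. The control island with the fewest reads, of any width, had 48, and 9 KO-only islands (0.415%) would have had fewer. This floor is not matched for width or IgG, so it cannot show whether the others would have been called. The part of the deeper KO library in the call of faint islands was not tested.

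The nearest listed control island lay at a median distance of 36 kb, within 10 kb for 469 islands (21.6%) and over 100 kb away for 639 (29.4%). Distance did not go with density: the medians were 24.7 within 10 kb and 24.8 beyond 100 kb, and the median widths were 8 and 9 kb. Just inside the rule were 4 islands with a control island 1 kb away, on Erbb4, Plxna2, Ccl7 and Pcnxl2, of 7 to 9 kb and densities of 20.7, 21.8, 20.7 and 27.4. Just outside it were 29 KO islands that shared 1 window with the control list, among them islands of 46 kb on Dlgap2, 35 kb on Cacna1c and 22 kb on Elovl3 with densities of 28.4, 19.1 and 31.1.

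The widest KO-only islands were mostly between genes. The island of 372 kb around Dynlrb2, a dynein light chain gene, had 46703 KO and 4091 IgG reads, a density of 46.9 and 2.93% of its length in gene bodies. The next were islands of 255 kb at 4930517E11Rik, 224 kb at 4933415F23Rik, 140 kb at the end of Zfpm2, which encodes the GATA cofactor FOG2, and 123 kb at Tmprss15, the gene of enteropeptidase. Islands of 106 to 120 kb met Folr4 and Gpr83, the angiotensin receptor gene Agtr1a, 1700028M03Rik, the homeobox gene Barx2 and Gm5347. In these 10 islands, 0.423 to 31.0% of the length was in gene bodies, so a control island could have been missed over most of it.

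Wholly inside genes, where the control list is complete, the widest KO-only island was 99 kb within Lrrc7 (chr3:158460001-158559000), which encodes a postsynaptic scaffold protein, with 7420 KO and 1541 IgG reads. It was followed by 63 kb in the transcription factor gene Sox6, 59 kb in Gramd1b, a sterol transport protein, 52 kb in the receptor phosphatase gene Ptprt, and 51 kb in Mdga2, a synaptic adhesion protein. This ranking of inside islands was chosen after their values were seen. Densities in these 5 ran from 23.8 in Sox6 to 42.8 in Mdga2.

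Of the 10 densest islands of at least 3 kb, the first 4 were on chromosome 8 and the other 6 on chromosomes 7, 9, 10, 15 and 17. Those on chromosome 8 were at 66.5 on Gm5347, 66.3 over Olfr372, Olfr373 and Olfr374, 61.9 on the carboxylesterase gene Ces5a and 60.005 on the lectin gene Cd209f. Then came Rab32 with 59.3, the pheromone receptor gene Vmn1r57 with 57.1, Olfr283 with 53.0, Zfp202 with 52.2, Capsl with 51.9 and Airn, the noncoding RNA of the imprinted Igf2r locus, with 51.01. The Airn island was wholly inside gene bodies. In the others, 1.2 to 36.5% of the length was, so a control island could have been missed over most of it. Chromosome 8 held 11 of the 50 densest and 196 of all KO-only islands.

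Long genes, several of them known from synapses, carried the most KO-only length, and all 20 genes with at least 100 kb of it were at least 200 kb long. Ntrk3, the receptor gene of neurotrophin-3, had 13 KO-only islands that covered 223 of its 386 kb, with densities from 19.4 to 30.9, and all its KO islands together covered 243 kb against 7 kb in control cells. Its control signal was 1 island near the gene end. Dlgap2, a scaffold of the postsynaptic density, had 14 KO-only islands over 189 kb, Cdh13, a cadherin without a cytoplasmic tail, 15 over 188 kb, Plcb1, a phospholipase C, 13 over 181 kb, and Dlg2, a postsynaptic scaffold, 8 over 178 kb. Ptprt had 13 over 161 kb and no control island on its 1134 kb. Lrrc7 had 143 kb, the transcription cofactor gene Dach1 132 kb, the kinase gene Tnik 126 kb and 1700112E06Rik 122 kb. Of those 20 genes, 19 had a control island, and Ptprt was the exception.

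**Figure D2:**
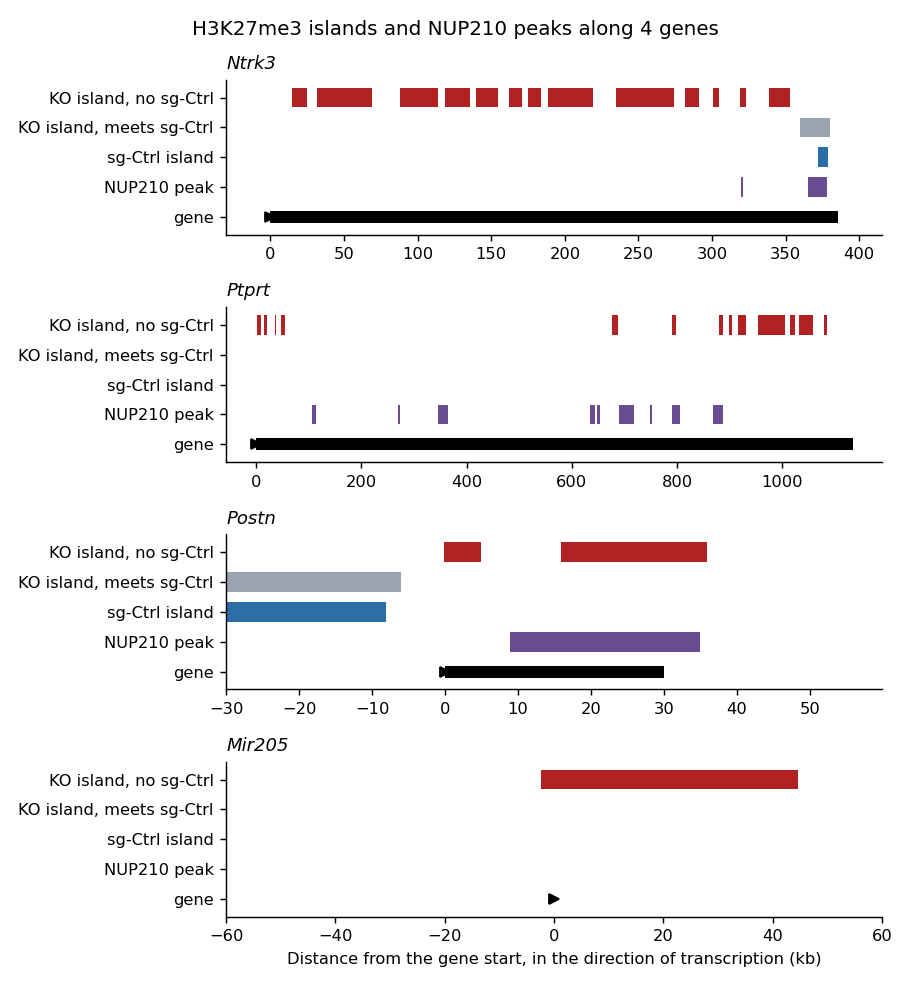
Islands along Ntrk3, Ptprt, Postn and Mir205, with distance from the gene start in the direction of transcription on the horizontal axis (kb); rows show KO-only islands (red), KO islands that meet a control island (gray), control islands (blue), NUP210 peaks of sg-Ctrl cells (purple) and the gene (black). KO-only islands run along most of Ntrk3, cluster at both ends of Ptprt, cover the start and the end of Postn and contain Mir205, and islands that go past the window are cut at its edge.

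KO-only islands met 1337 of the 5116 genes with any KO island (26.1%), and 735 of them (14.4%) had no control island at all, while 602 had 1 or more elsewhere on the gene. A total of 951 genes had 1 KO-only island, 73 had 5 or more, and 214 were covered whole. Among genes new to the list, Ptprt led with 161 kb, followed by the synaptic adhesion gene Nrxn3 with 88.9 kb, 1700111N16Rik with 85.6 kb, Gramd1b with 79 kb, Vat1l with 74.1 kb, the ubiquitin ligase gene Rnf180 with 65.5 kb and the protease gene Pappa2 with 65 kb, an order chosen after the values were seen.

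Longer genes had KO-only islands more often. It was 17.4% of genes under 10 kb, 21.9% at 10 to 50 kb, 31.4% at 50 to 200 kb, 50.9% at 200 to 500 kb and 74.3% (66.9 to 80.6) at 500 kb and more. The share with a KO-only island and no control island went the other way, from 17.2% under 10 kb to 7.89% at 500 kb and more. Short genes with a KO-only island were therefore mostly new to the list, 318 of 322 under 10 kb, and long ones mostly had control islands too, with 12 new of 113.

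Of 34 synaptic adhesion and scaffold genes with a KO island, 26 (76.5%, 60.004 to 87.6) had a KO-only island, beside 26.1% of all genes and 74.3% of genes of at least 500 kb. Their median length was 919 kb, so length cannot be told apart from function here. Besides Dlgap2, Dlg2 and Ptprt, the immunoglobulin adhesion gene Lsamp had 9 islands over 121 kb.

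Receptors for glutamate, GABA and glycine had KO-only islands in 22 of 36 genes (61.1%, 44.9 to 75.2), with a median length of 205 kb, beside 50.9% of genes of 200 to 500 kb. They were led by the kainate receptor gene Grik4 with 105 kb, the NMDA receptor gene Grin2a with 72 kb, the AMPA receptor gene Gria1 with 54 kb and Grid1 with 40 kb. Voltage-gated channels and other potassium channels had them in 31 of 64 (48.4%, 36.6 to 60.4), with a median length of 133 kb, beside 31.4% (28.7 to 34.3) of genes of 50 to 200 kb. They were led by Kcnt2, a sodium-activated potassium channel gene, with 91 kb, the voltage-gated Kcnh1 with 71 kb and Kcnj6, a G protein-gated inward rectifier, with 69 kb. Kcnt2, Kcnh1 and Kcnj6 themselves fall in the class of 200 to 500 kb, where 50.9% of all genes had a KO-only island. The class beside each list was set by its median length only, so length cannot be told apart from function for channels either. Axon guidance genes had KO-only islands in 7 of 19 (36.8%, 19.1 to 58.96), with a median length of 363 kb, beside 50.9% of genes of 200 to 500 kb. All 7 also had a control island, with 118 kb in the netrin receptor gene Unc5c, 39 kb in Ephb1, 26 kb in Epha6 and 9 kb in Sema5b.

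Cadherins, collagens and metalloproteases lay nearer to the 26.1% of all genes than the lists above. Cadherins, collagens and integrin genes had median lengths of 83.4, 141 and 144 kb, and genes of 50 to 200 kb gave 31.4%. Cadherins and protocadherins had KO-only islands in 16 of 60 genes (26.7%), with 63.8 kb in Cdh6, 44 kb in Cdh20 and 32 kb in Cdh12 after Cdh13. Collagens and matricellular genes had them in 11 of 33 (33.3%), with 77.1 kb in Col4a6 and 68 kb in Col4a5, the head-to-head pair of basement membrane collagens on chromosome X, 61 kb in Col12a1 and 40.1 kb in Col6a6. Of integrin, focal adhesion and mechanosensing genes, 1 of 9 (11.1%, 1.99 to 43.5) had one, namely Itga9, with 7 islands over 34 kb and no control island. Metalloproteases, serpins and their inhibitors had them in 11 of 45 (24.4%), led by Adamts18 with 51.9 kb and no control island, Adamts2 with 27 kb, Adamts20 with 21 kb and Adamts3 with 18 kb.

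Postn had 2 KO-only islands and no control island on its 29.9 kb, with 18.9 kb covered. The island at its start (chr3:54361001-54366000) was 5 kb wide with 399 KO and 36 IgG reads, a density of 29.8 (26.97 to 32.9) and a fold of 4.14. The island at its end was 20 kb wide with 1693 KO and 459 IgG reads, a density of 31.6 and a fold of 1.38, and it met a NUP210 peak. A control island ended 8 kb before the start of the first, outside the gene. Of the other genes that the study measured, Ccl2, Cxcl1, Cxcl3, Il1a, Itga7, Itgb2, Ptk2 and Nup210 met no KO-only island.

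Of 47 developmental transcription factors with a KO island, 4 (8.51%, 3.36 to 19.9) had a KO-only island, beside 26.1% of all genes. Their median length was 7.46 kb, and the 17.4% of all genes under 10 kb lies within the interval of the list. The 4 were Sox6, Lmx1a with 31 kb, Otx2, a head patterning gene covered whole by an island of 35 kb, and Sox17, of which 0.073 kb was met. Wnt, FGF and TGF-beta genes had them in 4 of 24 (16.7%), with 100 kb in Fgf12, 6.89 kb in Bmp2, 2.499 kb at the start of Sfrp1 and 1.52 kb in Wnt5a. Chemokine and interleukin genes had them in 3 of 40 (7.50%, 2.58 to 19.9), with a median length of 11.3 kb, beside 21.9% of genes of 10 to 50 kb. The 3 were Il23r with 5.86 kb, Il16 with 4 kb and Ccl7 with 1.81 kb. This list was not matched for length, and the 17.4% of all genes under 10 kb lies within its interval. Polycomb and Trithorax regulators had 1 gene with a KO island and 0 with a KO-only island.

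Zinc finger genes had KO-only islands in 12 of 43 (27.9%), with 90 kb in Zfp423 and 32 kb in Zfp804a, solute carriers in 26 of 99 (26.3%), with 84 kb in Slc25a21 and 63 kb in Slco5a1, and cytochrome P450 enzymes in 9 of 36 (25%), with 12.3 kb in Cyp4f14 and 11 kb in Cyp4f17. Keratins and keratin-associated genes had them in 6 of 18 (33.3%, 16.3 to 56.3), with a median length of 4.32 kb, beside 17.4% of genes under 10 kb. All 6 were new to the list, as were 318 of the 322 genes under 10 kb with a KO-only island. Among the 6 were Krt76 with 3.92 kb, Krt24 with 0.908 kb, Krtap14 and Krtap15, which are genes of hair and stratified epithelium.

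**Figure D3:**
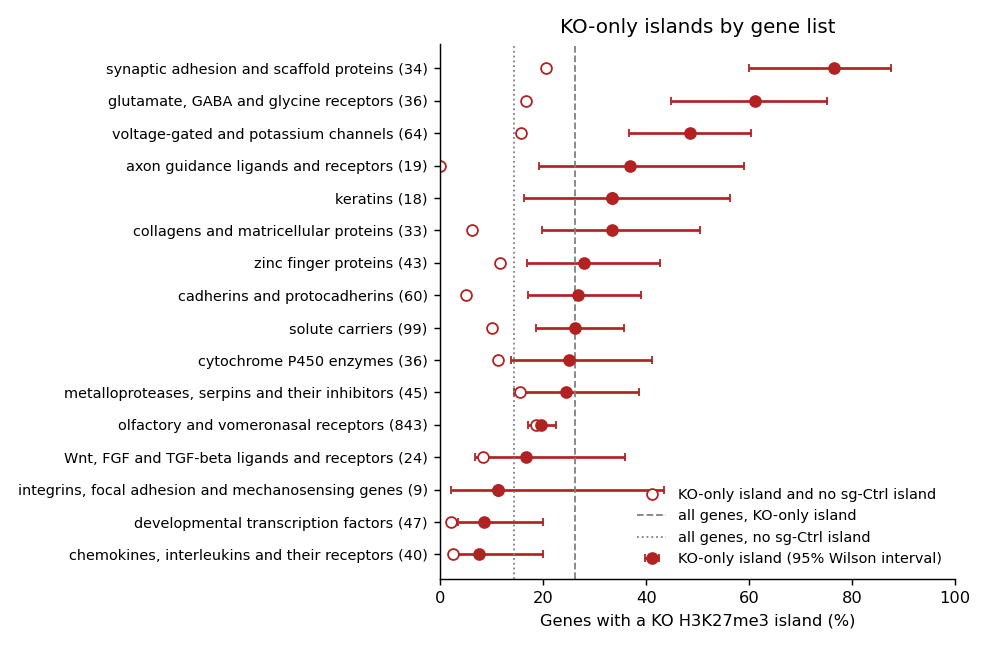
Percent of genes with a KO island that had a KO-only island (filled, with 95% Wilson intervals) and of those that also had no control island (open), for each gene list with at least 5 such genes; the number of genes is in parentheses. Synaptic genes, transmitter receptors and ion channels lie above the share of all genes (dashed, 26.1%) for filled points, and their open points lie near the share of all genes new to the list (dotted, 14.4%).

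The endothelial marker Cdh5 had 1 KO-only island, of 9 kb with 587 KO and 42 IgG reads, and the neuronal marker Rbfox3 had islands of 3, 4 and 12 kb with folds of 7.81, 2.37 and 2.88. Neither gene had a control island or an H3K4me3 peak at its TSS. Of the other markers of these types, Pecam1 and Gfap met no island, and Snap25 had islands in both genotypes and no KO-only one.

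Odorant and vomeronasal receptors, most of which are silent outside the nose, had KO-only islands in 165 of 843 genes (19.6%, 17.04 to 22.4), beside 26.1% of all genes. This was the largest list and one of short genes, with a median length of 0.948 kb, and genes under 10 kb gave 17.4%. Of the 165, 157 had no control island, or 18.6% of the list beside 17.2% of genes under 10 kb. They lay in 146 islands. Odorant receptor genes (Olfr) had KO-only islands in 137 of 690 (19.9%), the V1R family of pheromone receptors (Vmn1r) in 7 of 90 (7.78%) and the V2R family (Vmn2r) in 21 of 63 (33.3%), with 23.1 kb in Vmn2r56, 17.9 kb in Vmn2r99, 16.2 kb in Vmn2r95 and 14.4 kb in Vmn2r106. The 112 islands on Olfr genes had a median fold of 1.53, and 85 of them had an FDR of at most 0.05. The V2R islands stood on 3 chromosomes, 16 of 27 on chromosome 17. These families hold many related genes, some of them close copies, and how reads that match several places were counted is not given in the sources used here, so their values are uncertain to that extent.

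NUP210 peaks of sg-Ctrl cells, which the choice of islands did not use, met 665 KO-only islands (30.6%, 28.7 to 32.6), beside 42.0% of all KO islands. The share was 45.6% (44.4 to 46.8) in KO islands that met a control island and 32.1% (29.99 to 34.3) in control-only islands. NPC peaks met 559 KO-only islands (25.8%, 23.96 to 27.6), beside 36.6% of all KO islands, 40.1% of those that met a control island and 26.1% of control-only islands. Both met 479 (22.1%) and neither met 1425 (65.7%).

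Within classes of width, the shares overlapped for the narrowest islands and stood apart for wide ones. At 1 to 5 kb, 29.0% (25.2 to 33.01) of KO-only islands met a NUP210 peak, against 28.3% (25 to 31.9) of those with a control island, and at 6 to 10 kb the shares were 29.0% (25.9 to 32.4) and 34.4% (31.8 to 37.1). At 21 to 50 kb the shares were 30.8% (25.6 to 36.5) and 47.6% (45.3 to 49.8), and at 51 kb and wider they were 32.8% (22.1 to 45.6) and 66.8% (64.3 to 69.3). The NUP210 list too holds only peaks that meet gene bodies. Among islands wholly inside gene bodies, the order by width was another. The intervals overlapped at 1 to 5 kb, with 28.4% (24.5 to 32.7) and 30.1% (26.6 to 33.9), and did not overlap at 6 to 10 kb, with 28.0% (24.5 to 31.8) and 34.8% (31.9 to 37.9), nor at 11 to 20 kb, with 36.0% (31.3 to 40.9) and 44.5% (41.6 to 47.5). At 21 to 50 kb they overlapped again, with 46.6% (37.7 to 55.6) and 52.7% (49.5 to 55.8), and at 51 kb and wider there were only 5 KO-only islands, of which 2 met a peak.

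**Figure D4:**
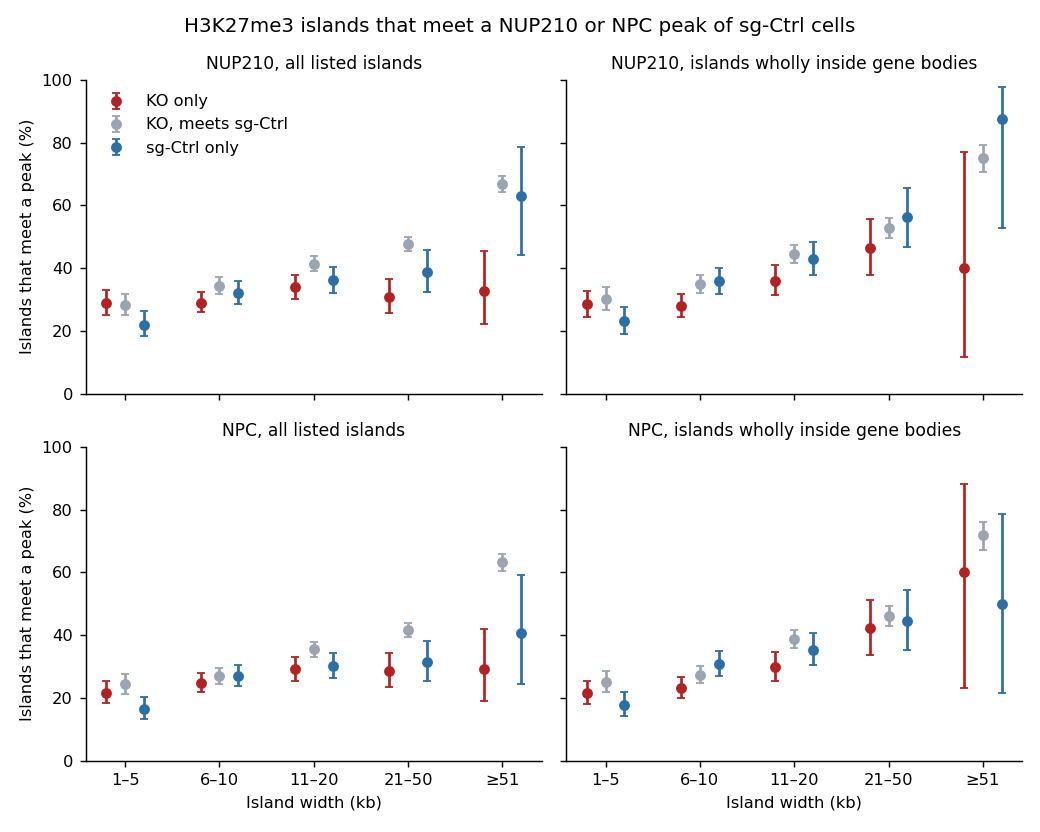
Percent of H3K27me3 islands that meet a NUP210 (top) or NPC (bottom) peak of sg-Ctrl cells by island width (kb), for all listed islands (left) and those wholly inside gene bodies (right), with 95% Wilson intervals; red is KO only, gray is KO islands that meet a control island, blue is control only. In the left panels the red points stay near 30% for NUP210 at every width while the gray ones rise to 66.8%, and on the right the red NUP210 points are near 28% up to 10 kb, 36.0% at 11 to 20 kb and 46.6% at 21 to 50 kb, with only 5 islands in the widest class.

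Islands on odorant receptor genes met NUP210 peaks more often than KO-only islands as a whole. Of the 112, 78 (69.6%, 60.6 to 77.4) met a NUP210 peak and 71 (63.4%) an NPC peak, and with NUP210 peaks of an FDR of at most 0.05 there were 69 (61.6%). KO islands on Olfr genes that met a control island gave a like share, 217 of 292 (74.3%, 69.0 to 79.0). KO-only islands on V2R genes met a NUP210 peak in 15 of 27 (55.6%, 37.3 to 72.4), an interval that overlaps that of Olfr, and those on V1R genes in 1 of 7. These families were examined after their values were seen. In the NUP210 list as a whole, a fold over IgG of at least 2 was rare, and with such peaks alone the share of KO-only islands met was 1.06%.

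H3K4me3 at TSS was also outside the rule. Of the KO-only islands, 2136 (98.4%, 97.8 to 98.9) met no H3K4me3 peak near a TSS in either genotype, beside 96.6% of all KO islands, 95.9% (95.4 to 96.4) of those that met a control island and 93.7% (92.4 to 94.7) of control-only islands. Such a peak was thus rare in every set of islands. Among KO-only islands, 27 met one in sg-Ctrl, 26 in KO and 19 in both. The list of H3K4me3 peaks covers the 4 kb on either side of TSS only. Of the 1337 genes with a KO-only island, 1166 had no TSS peak in either genotype. The share with a peak was 12.8%, close to the 12.9% of genes whose KO islands all met control islands, and it was 29.8% of genes with control-only islands.

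In the 132 genes with a KO-only island and a TSS peak in both genotypes, the median log2 ratio of scaled H3K4me3 reads per kb, KO over sg-Ctrl, was -0.15 (-0.32 to -0.01), against -0.50 over all 12197 genes with a peak in both. A ratio of 0.5 or less was found in 11 (8.33%), beside 9.66% of all genes, and a ratio of 2 or more in 9 (6.82%), beside 0.525%. The value differed within the set: the 58 genes without any control island had a median of -0.34 (-0.56 to -0.13) and the 74 with a control island elsewhere had -0.0046 (-0.21 to 0.084). The 392 genes whose KO islands all met control islands had -0.32 (-0.40 to -0.26), and the 294 with control-only islands had -0.20 (-0.28 to -0.13), so medians above that of all genes were found in each of these sets. Genes with a KO-only island also had fewer H3K4me3 reads per kb in sg-Ctrl cells, a median of 199 against 543 over all genes. This was shared by the other sets, with 307 where all KO islands met control islands and 261 with control-only islands. A ratio of 2 or more was likewise found in 2.55% and 4.76% of these 2 sets, so neither trait was particular to KO-only islands. When the libraries were scaled by the peaks found at the same place in both, the median of the 132 genes turned to 0.31 and that of all genes to -0.03, so the value stayed above that of all genes but changed sign.

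Where the start itself lay in a KO-only island, 18 genes kept a TSS peak in both genotypes, 7 had it in sg-Ctrl alone and 4 in KO alone. For starts in KO islands that met a control island, these counts were 169, 14 and 37. Over all genes with a TSS peak, counted from transcripts in the same way, they were 12197, 278 and 256. With 7 and 4 genes, the balance in KO-only islands is known only roughly. The 7 with a peak in sg-Ctrl alone were A630095E13Rik, the butyrophilin-like gene Btnl10, the G protein subunit gene Gng2, Mir710, Postn, Tank, an adaptor of NF-kappa-B signaling, and Tbcel. The sg-Ctrl peaks of Postn and Mir710 lay near the start but did not overlap the KO-only island. Gng2 had 1109 H3K4me3 reads in sg-Ctrl and Tank 1052, while the others had 43 to 175, with 77 for Postn. The island at the Gng2 start was weak, with 661 KO and 244 IgG reads, a fold of 1.01 and an FDR of 0.390, but 2 further KO-only islands of 31 and 22 kb in the gene had folds of 2.47 and 1.51, so that 63.7 of its 105 kb were covered. The island at Tank had a fold of 1.13. The 4 with a peak in KO alone were Capsl, Kctd1, the synaptotagmin gene Syt3 and Trim67, with 55 to 120 reads.

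Among starts with a peak in both, the ratio was lowest at Cask, a membrane-associated guanylate kinase gene, with a log2 ratio of -1.64 from 2025 reads in sg-Ctrl to 648 in KO inside an island of 19 kb. Mfap3l followed with -1.28, from 1373 to 600 reads, in an island of 34 kb with a density of 46.8. Col4a6 had -1.03, from 2226 to 276 reads, and its KO peak lay beside the island and not in it. Rab32 had -0.69, from 1244 to 928 reads, in the fifth densest island. Ratios are per kb of peak, and peaks differ in width between the lists, so they do not follow the reads alone.

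At the other end, Sfrp1, a secreted Wnt antagonist, had a log2 ratio of 1.56, from 127 to 773 reads, although its start lay in a KO-only island of 23 kb with 1315 KO and 135 IgG reads. The volume-regulated channel gene Lrrc8e had 1.06, from 53 to 308 reads. The inflammatory caspase genes Casp1 and Casp4 lay in the same island of 49 kb, and Casp1 had 0.73, from 43 to 121 reads, where Casp4 had -0.83, from 108 to 77. Rnf152 had 0.20 and Rgs9 0.08. H3K27me3 and H3K4me3 were thus called over the same start in 1 library each, and whether they lay on the same chromosomes or in different cells was not measured.

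The share of KO islands without a control island differed among chromosomes. It was 7.08% (4.404 to 11.2) on chromosome 18, 10.7% on 19, 10.96% on 5 and 11.6% on 4, and it was 37.6% (33.4 to 42.0) on chromosome 7, 33.2% on 8 and 32.6% on 17. Control-only islands were frequent on chromosome 4 (47.2%) and rare on chromosome 8 (5.01%). Counted among islands wholly inside gene bodies, the share still ran from 7.39% on chromosome 18 to 39.4% on chromosome 7. Of the KO-only islands, 1 lay on chromosome Y and met Erdr1, with 210 KO and 122 IgG reads and an FDR of 1.

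The chromosome shares went with the chromosome ratios of H3K4me3 and of H3K27me3 itself. Over 20 chromosomes, Pearson's r with the median log2 ratio of H3K4me3 was 0.82 and Spearman's rho was 0.76. Without chromosomes 5 and 18, the farthest from the median, these were 0.74 and 0.69. With the median log2 ratio of H3K27me3 in islands present in both lists, they were 0.73 and 0.65, and without chromosomes 4 and 18 they were 0.58 and 0.54. This H3K27me3 ratio comes from the same libraries whose lists chose the KO-only islands, so it is not independent of their share. H3K4me3 medians ran from -0.72 on chromosomes 4, 5 and 18 to -0.36 on 7, 8 and X. These correlations are a description, since chromosomes of 1 KO clone share its libraries and are not replicates. The part that such chromosome-wide differences between the libraries have in the KO-only share was not tested.

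**Figure D5:**
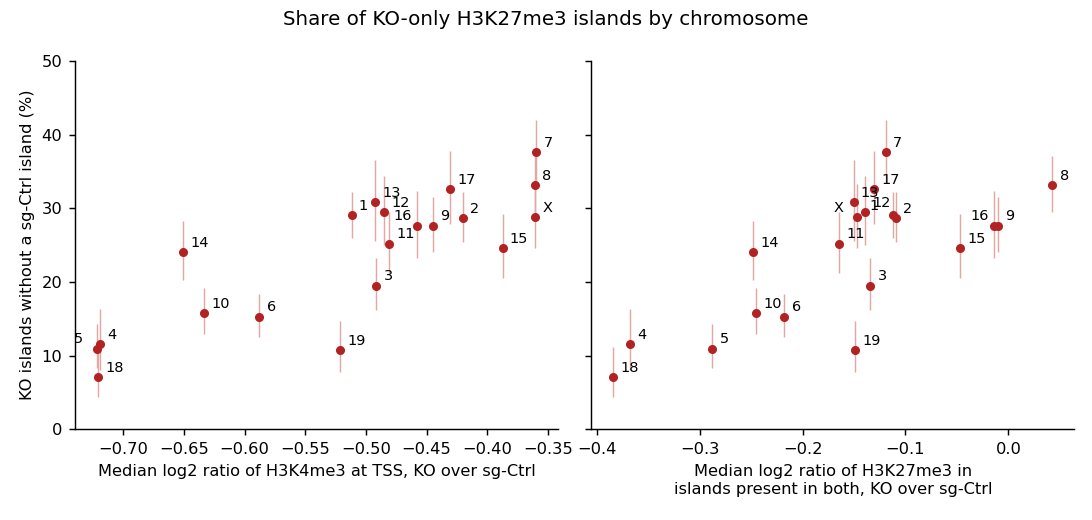
Percent of KO islands without a control island on each chromosome (95% Wilson intervals) against the chromosome's median log2 ratio, KO over sg-Ctrl, of H3K4me3 at TSS (left) and of H3K27me3 in islands present in both lists (right). Chromosomes 4, 5 and 18 lie at the lower left of both panels, and 7 and 8 are at the top.

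Most KO-only islands lay within genes and away from their ends. A gene start was covered by 392 (18.1%, 16.5 to 19.7), a gene end by 470 (21.7%, 19.98 to 23.4) and a whole gene by 183 (8.43%), while 1498 (69.0%) covered neither start nor end. In KO islands that met a control island, the shares were 29.8%, 31.5%, 17.5% and 57.4%, and in control-only islands, of the same median width, they were 17.4%, 17.6%, 5.19% and 70.8%. The intervals for gene ends, 19.98 to 23.4% and 15.9 to 19.4%, did not overlap. Islands that covered an end and no start were 12.9% (11.6 to 14.4) of KO-only and 11.8% (10.4 to 13.4) of control-only islands, and those that covered both a start and an end were 8.76% (7.64 to 10.02) and 5.76% (4.77 to 6.94). The difference thus lay in islands with both, and the widest KO-only island was 372 kb against 150 kb in the control-only set, so width was not matched.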

How the data were processed

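The study's ChIP-seq peak lists were used: both histone marks in either genotype, and in sg-Ctrl cells also the 2 pore targets NUP210 and NPC. The authors ran SICER with IgG as the control and a window of 1000 bp for broad targets or 200 bp for H3K4me3, and paired peaks with gene bodies or TSS regions. The submitters' processing notes name Trimmomatic, Bowtie2, Picard and STAR. Per peak, the authors deposited raw read counts of ChIP and of IgG, the p-value and FDR of the enrichment, and the fold, a ratio to IgG after scaling for library size. The lists also give the overlap with the gene in bp.

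Entries that named the same peak were merged. Relative library sizes against IgG followed from reads and fold, at 2.68 and 0.847 for H3K27me3 in KO and sg-Ctrl and at 1.35 and 1.06 for H3K4me3, and reads were divided by them. IgG reads were equal in all 832 H3K27me3 islands that had identical ends in both lists, so the sizes are on 1 scale, and depth beyond them is unknown. Overlap meant at least 1 bp. Shares have 95% Wilson intervals, densities exact Poisson intervals and medians order-statistic intervals, all for counting error only. H3K4me3 was compared by symbol for genes and by transcript for starts. With 1 library per condition, no test was made.

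The build of the ChIP-seq lists is not given in the sources used here: the processing notes name mm9, mm10 and NCBIM37 without a role, and the study's methods give mm9 for its chromatin accessibility data. For 87.7% of 4745 genes matched by symbol, a start or end was at most 50 bp from its place in GRCm38.p6, so RefSeq promoters and miRNAs of that build were matched by symbol or position. The NCBIM37 genome was not used.

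The KO-only islands and gene lists were chosen with earlier results of these data known. Genes named are those of the 10 widest and 10 densest islands (at least 3 kb, FDR at most 0.05), the 10 with most KO-only length, the 5 lowest and 5 highest H3K4me3 ratios at starts in KO-only islands (100 reads or more in 1 library), the genes the study measured and up to 4 of each list, apart from a few that are not reported here. Other genes named, such as miRNAs, promoters and genes at the edge of the rule, were picked after their values were seen. On simulated data, 400 of 400 islands set apart were found among 2000, and a library ratio of 2.5 came back as 2.5. Alternatives covered limits on FDR, fold, distance and gene body, scaling and the meaning of overlap. Tools were Python 3.11.15 with numpy 2.4.6, pandas 2.3.3, scipy 1.17.1 and, for figures, matplotlib 3.10.9.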

Additional observations from a re-analysis of the deposited data

How the results depend on the processing

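Over 74 alternatives of 8 results, 33 left a value within its interval, 7 left the number of islands, which has no interval, within 1.5 times, 31 moved the value and 3 reversed it. The settings that combine islands wholly inside gene bodies with an FDR of at most 0.05, and H3K4me3 with inside islands, were chosen after seeing the data. The count of 2170 ranged from 1524 to 2166, with 1362 for islands inside genes at an FDR of at most 0.05. The median width of 9 kb was 10 kb at an FDR of at most 0.01, 11 kb at a fold of at least 2 and 8 kb for inside islands, also with the FDR limit. The median density of 24.6 was 24.9 at an FDR of at most 0.01, 26.6 at a fold of at least 2, 24.3 for inside islands, 27.3 with reads scaled by shared peaks and 13.02 after subtraction of IgG reads. The share that covered a gene start, 18.1%, was 23.0% at a fold of at least 2, and it was 1.23% for inside islands and 1.40% with the FDR limit, since islands inside a gene seldom reach its start. The distance of 36 kb was 48.5 kb at a fold of at least 2, 32 kb for inside islands and 31 kb with the FDR limit.

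The share of 30.6% that met a NUP210 peak was 27.6% at an FDR of at most 0.05 or 0.01, 20.01% at a fold of at least 2, and 24.96% for inside islands with the FDR limit. With NUP210 peaks of an FDR of at most 0.05 it was 24.1%, with a fold of at least 2 it was 1.06%, and for at least 50% of the island covered it was 27.1%. The same settings gave KO islands that met a control island 36.1%, 1.64% and 30.3%. The share of 25.8% for NPC was 22.9%, 23.2%, 16.9% and 19.7% under the island settings at FDR 0.05, FDR 0.01, fold 2 and inside with FDR, and 13.9%, 0.138% and 22.1% under the peak settings. The median log2 ratio of H3K4me3, -0.15, was -0.34 for genes without a control island, and it reversed to 0.31 with scaling by shared peaks, to 0.016 with all peaks of a gene summed and to 0.084 for starts in a KO-only island. The cause of these moves was not tested beyond what each setting's own construction shows. No paired analysis was possible because each ChIP condition had 1 library, and the numbered RNA-seq replicates were not analysed here. The KO library's greater depth, the limit of the lists to gene bodies and the use of 1 clone bound all results.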
